A study of Mus musculus with 6 samples.

Results

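Interferon-stimulated genes are the genes that cells switch on when interferon binds its receptor. A list of 47 of them, drawn up with earlier results of these data known, was found by gene symbol among the 54232 genes of the count table, and each of the 47 matched exactly 1 gene. RNA-seq counts came from mouse uterine stromal cells (mUSCs) in primary culture, taken on day 4, with 3 libraries of WT and 3 of Pbrm1 cKO. The labels name the genotypes WT and Pbrm1 cKO, and the methods of the study describe the controls as Pbrm1 fl/fl females and the knockouts as Pbrm1 fl/fl females that also carry PR-IRES-cre, in which Cre is made from the progesterone receptor locus. Pbrm1 encodes a subunit of the PBAF form of the SWI/SNF chromatin remodeler. Both groups shared the floxed alleles in that description, the age of the females (8 to 12 weeks), a digest of 5 to 10 pooled uterine horns, and plating for 4 h followed by 2 h in fresh medium. The labels call the animals pregnant in one field and pseudopregnant in another. Progesterone receptor is made in stroma, epithelium, smooth muscle and ovary, so Cre was not limited to stromal cells. The study describes its replicates as biological, and the labels do not say whether the libraries of a group came from separate pools of animals. The p-values measure the spread between these libraries.

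Type I interferons (alpha and beta) bind the receptor of Ifnar1 and Ifnar2 chains, and the kinases Jak1 and Tyk2 then set off a complex that contains Stat2 and Irf9 and binds the interferon-stimulated response element (ISRE). Interferon-gamma binds Ifngr1 and Ifngr2 and acts mainly through the gamma-activated site (GAS). Ifit, Oas and Mx genes are the classic targets of type I interferon, and guanylate-binding proteins (Gbp) and immunity-related GTPases (Irgm1, Irgm2, Igtp, Iigp1) those of interferon-gamma, although many genes answer to both. In the uterus, interferon signals are known for defence against infection and for maternal responses around implantation.

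Library totals ranged from 13253575 to 18338667 counts. Pbrm1 averaged 1472 ± 178 normalised counts (counts divided by the size factor of the library) in WT. In Pbrm1 cKO it averaged 436 ± 33.9 (SD, n = 3 per group), which left 29.6% of the WT level (DESeq2 adjusted p = 5.19e-40). The stromal markers Vim and Pdgfra averaged 33864 and 14507 normalised counts in WT, and summed stromal markers (13 genes) ranged from 7613 to 8770 CPM (counts scaled to library size) in WT and from 6039 to 6401 in Pbrm1 cKO. Libraries of WT spread more widely than those of Pbrm1 cKO, with a biological coefficient of variation of 0.165 against 0.0466, and WT replicate 1 stood apart from the other WT libraries in markers of leukocytes, epithelium and endothelium.

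All 47 genes were detected and tested. In Pbrm1 cKO, 33 of them were higher, 1 was lower and 13 did not pass the threshold (DESeq2 Wald test, Benjamini-Hochberg adjusted p under 0.05 over 17474 genes). Of all genes tested, 31.1% passed, 15.9% as higher and 15.2% as lower. Under the stricter criteria of the study (over 1.5-fold, p under 0.01 and adjusted p under 0.1), 26 of the 47 were higher and 1 was lower, beside 9.53% and 8.31% of all genes tested. At least 2-fold higher were 17 of the 47, beside 5.83% of all genes tested. All 3 Pbrm1 cKO libraries lay above all 3 WT libraries in 36 of the 47 genes and below them in 2, beside 24.0% and 24.6% of all genes tested. The median log2 fold change of the 47 genes was 0.74, and that of the 14068 genes with a mean of at least 10 normalised counts was -0.003. Without WT replicate 1 the count of higher genes was 32, and over all fits that left out 1 library it ranged from 29 to 34. In bulk RNA, fewer cells of a type and less RNA per cell cannot be told apart.

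**Figure D1:**
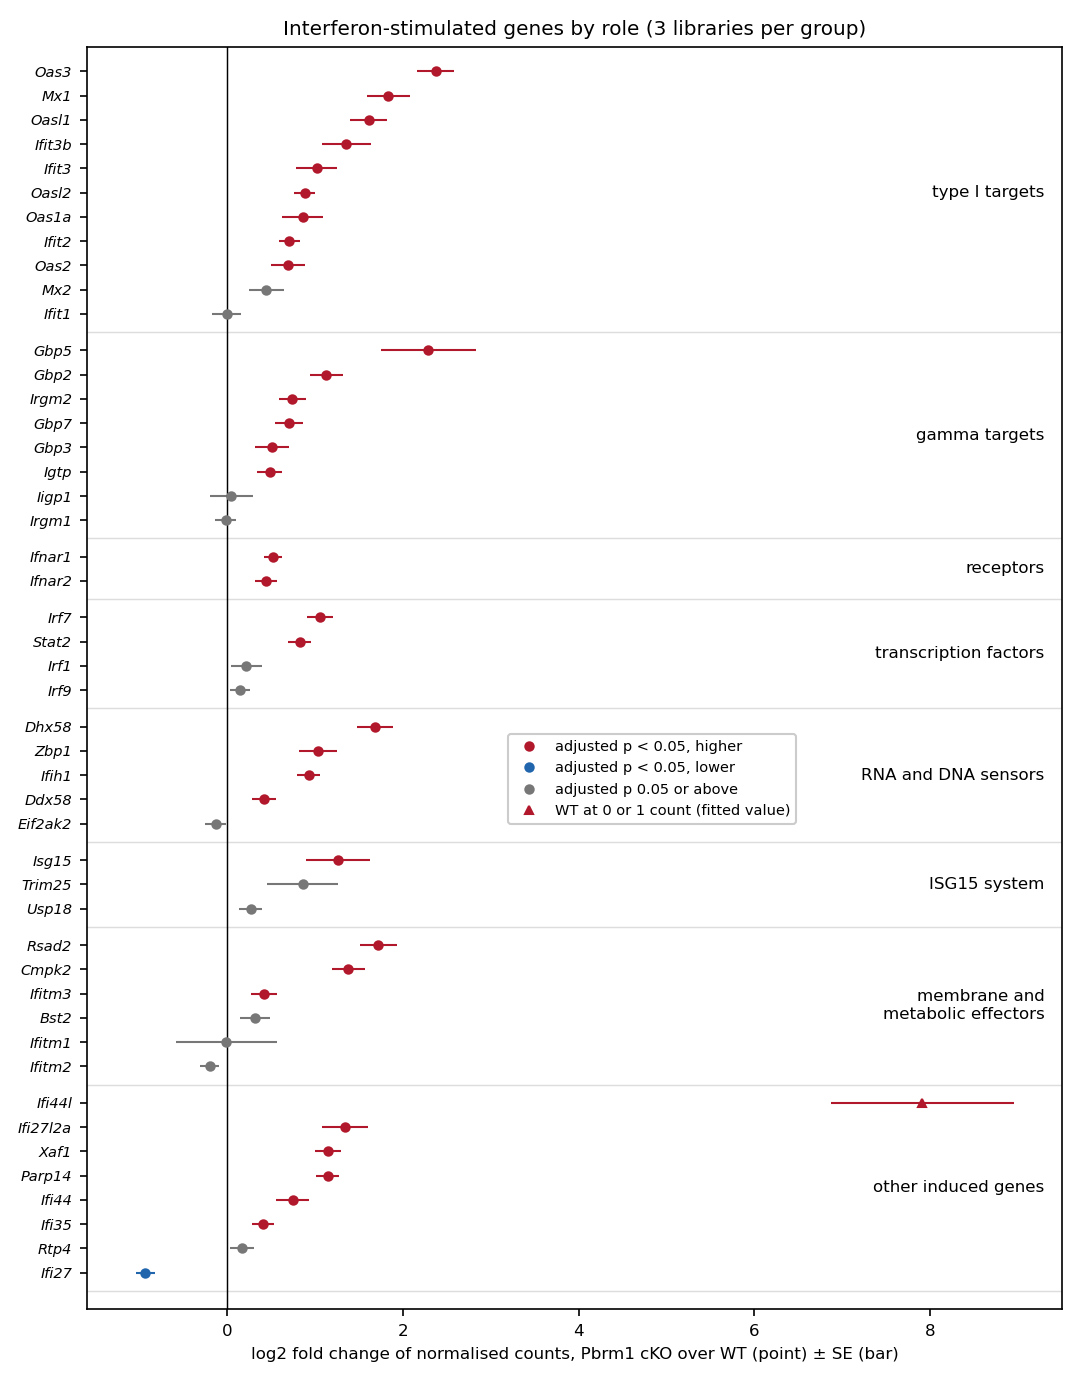
Log2 fold change of normalised counts, Pbrm1 cKO over WT, with its standard error for each of the 47 interferon-stimulated genes, grouped by role (3 libraries per group). Red points are the 33 genes that were higher, blue the 1 that was lower (Ifi27), and grey the 13 that did not pass. The triangle is Ifi44l, whose WT libraries held 0 or 1 count, so its fitted value is no measure of size.

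The first question was how targets of type I interferon compared with targets of interferon-gamma. Of 11 Ifit, Oas and Mx genes, 9 were higher in Pbrm1 cKO, none was lower, and Ifit1 and Mx2 did not pass. Of 8 Gbp and immunity-related GTPase genes, 6 were higher, none was lower, and Irgm1 and Iigp1 did not pass. The median log2 fold change was 0.88 over the type I targets (range -0.01 to 2.37) and 0.61 over the gamma targets (range -0.02 to 2.29). These ranges overlapped almost throughout, and no test of the difference between the groups of genes was made, since the genes of a group are not replicates. In the further lists of responsive genes given below, the order of the medians was reversed (0.63 for type I and 1.30 for gamma).

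Among the oligoadenylate synthetases, enzymes whose product activates the nuclease RNase L, Oas3 changed most. Its normalised counts were 91.9, 168 and 97.3 in WT and 669, 605 and 570.5 in Pbrm1 cKO. Every Pbrm1 cKO library was more than 3 times the highest WT library, and the fitted log2 fold change was 2.37 ± 0.21 (SE; adjusted p = 2.49e-27). Oasl1, a synthetase-like protein known to restrain translation of Irf7, rose 3.05-fold from 228 ± 75.3 to 696 ± 89.6 normalised counts (SD, n = 3; DESeq2 adjusted p = 1.14e-12). Oasl2 rose 1.84-fold, Oas1a 1.81-fold and Oas2 1.61-fold. Oas1a shared 57.6% of its 50-base stretches with Oas1g, so reads of the pair can be lost or split by the counting. Oas1a also did not pass without WT replicate 3 (adjusted p = 0.082).

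Mx1 and Mx2 encode dynamin-like GTPases that block viruses, and they lie 72.4 kb apart on chromosome 16. Mx1 had 33.1, 55.5 and 54.0 normalised counts in WT against 183, 161 and 165 in Pbrm1 cKO, a 3.56-fold rise with no overlap (adjusted p = 1.75e-12). Mx2 had 90.9, 96.6 and 93.0 in WT and 126, 120 and 135 in Pbrm1 cKO. The Mx2 libraries did not overlap either, but its 1.36-fold difference (95% confidence interval 1.03 to 1.78) did not pass in DESeq2 (adjusted p = 0.0794) and passed in edgeR (adjusted p = 0.0235) and limma voom (adjusted p = 0.0486).

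The Ifit genes, whose proteins bind foreign RNA ends, form a cluster on chromosome 19 in the order Ifit2, Ifit3, Ifit3b and Ifit1, with gaps of 7.11, 19.2 and 27.5 kb. Ifit2 rose 1.63-fold, Ifit3 2.02-fold and Ifit3b 2.56-fold. Ifit1, the last gene of the row, had 645, 893 and 606 normalised counts in WT against 767, 670 and 693 in Pbrm1 cKO. The groups overlapped, and the fitted fold was 0.993 (95% confidence interval 0.799 to 1.23; adjusted p = 0.974), with a sign that changed with the library left out. Ifit3 and Ifit3b are near copies, with 51.2% and 45.0% of their 50-base stretches shared, so their separate values are uncertain. The difference between Ifit1 and its neighbours was not tested.

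Of the gamma targets, Gbp5, a guanylate-binding protein that promotes inflammasome assembly, changed most, and it had the lowest WT level per length of the 4 Gbp genes (0.185 TPM, counts scaled to gene length and library size). Its normalised counts were 3.21, 7.77 and 8.65 in WT and 29.6, 29.6 and 36.6 in Pbrm1 cKO (log2 fold change 2.29 ± 0.54, adjusted p = 1.72e-04). Gbp2 had 89.8, 128 and 104 in WT and 226, 248 and 226 in Pbrm1 cKO, a 2.18-fold rise (adjusted p = 4.86e-08). Neither gene overlapped between the groups. Gbp7 rose 1.62-fold and Gbp3 1.43-fold, and the 4 Gbp genes lie in 1 cluster on chromosome 3. Gbp3 held only narrowly (adjusted p = 0.0282) and did not pass in 5 of the 6 fits that left out 1 library.

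The immunity-related GTPases act on membranes around intracellular pathogens. Irgm2 had 361, 352 and 277 normalised counts in WT against 628, 520 and 505 in Pbrm1 cKO, a 1.67-fold rise (adjusted p = 2.06e-05). Igtp (also named Irgm3), whose span overlaps that of Irgm2 on chromosome 11, rose 1.39-fold from 371 ± 63.1 to 517 ± 14.6 (SD, n = 3; DESeq2 adjusted p = 0.00551), and it did not pass without Pbrm1 cKO replicate 2 (adjusted p = 0.0578). Exons of the pair overlapped on the same strand (8.01% of the exonic bases of Igtp and 4.39% of those of Irgm2), so counts from that stretch are uncertain for both genes. Irgm1, at a separate place on the same chromosome, had 1782, 1887 and 1501 in WT and 1817, 1664 and 1618 in Pbrm1 cKO. Its groups overlapped, with a fold of 0.986 (95% confidence interval 0.842 to 1.15; adjusted p = 0.927). Iigp1 had 103, 185 and 117 in WT and 133, 142 and 142 in Pbrm1 cKO, a fold of 1.03 with a wide interval (0.743 to 1.43). The signs of Irgm1 and Iigp1 changed with the library left out.

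**Figure D2:**
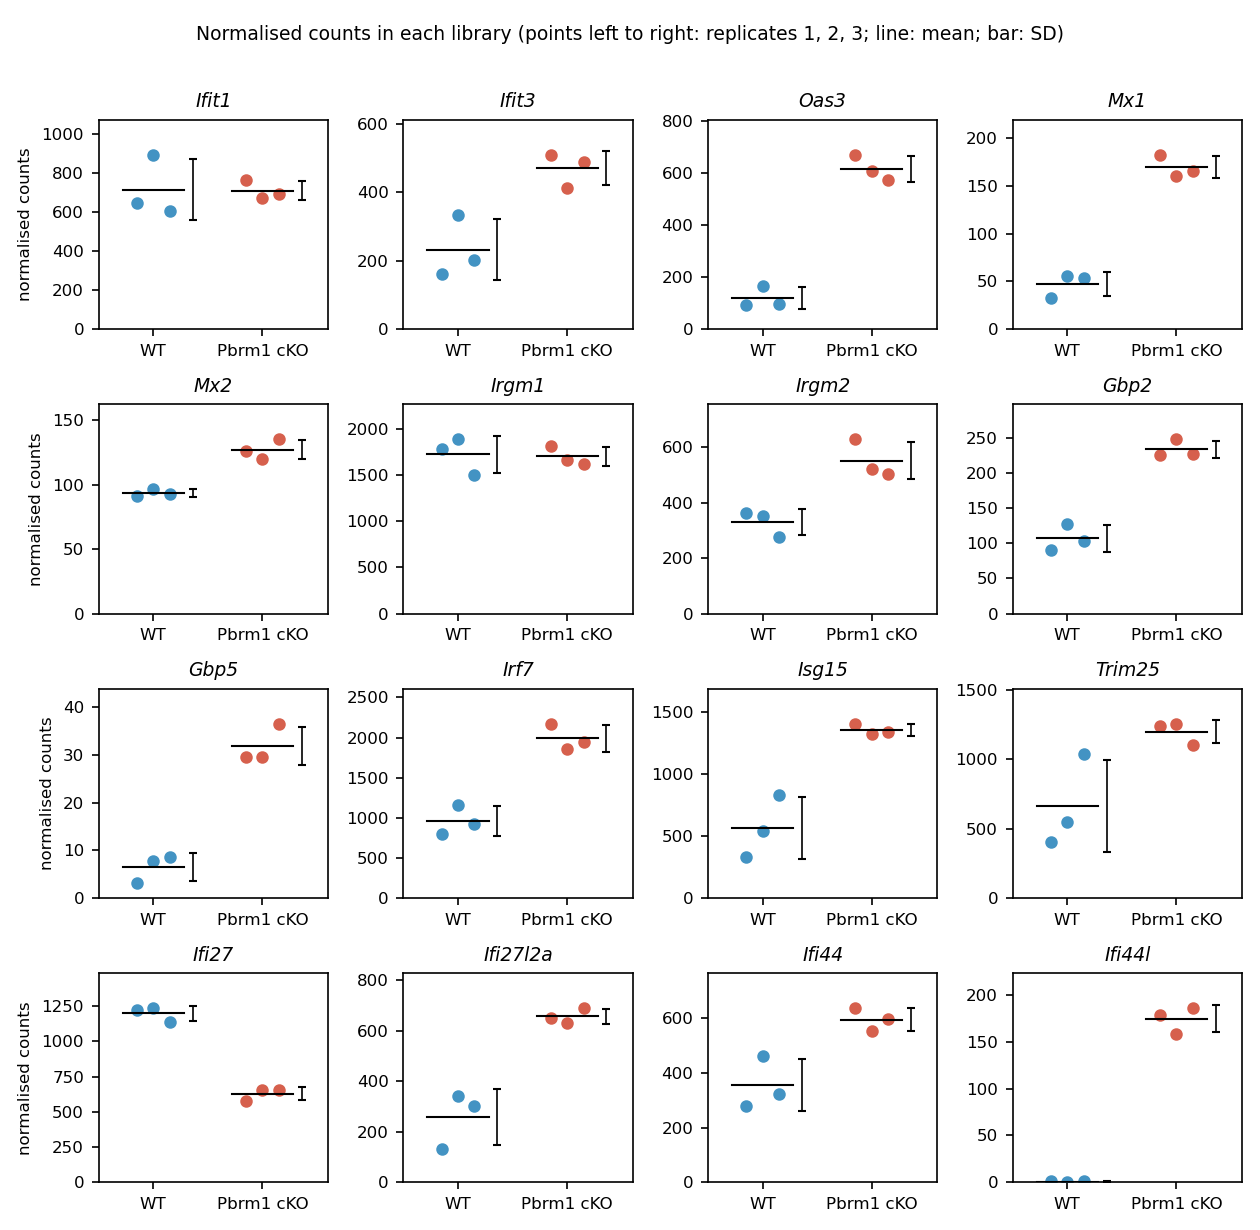
Normalised counts of 16 interferon-stimulated genes in each library, WT in blue and Pbrm1 cKO in red, with the mean as a line and the SD as a bar (n = 3 each, each axis from 0). Ifit1 and Irgm1 overlap between the groups, Trim25 has 1 WT library at 1033 close to the Pbrm1 cKO libraries, Ifi27 falls while its neighbour Ifi27l2a rises, and Ifi44l is near 0 in WT only.

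Relative to the mean of each gene over the 6 libraries on the log2(normalised count + 1) scale, the median type I target lay at -0.98, -0.25 and -0.49 in WT replicates 1 to 3 and at 0.59, 0.41 and 0.43 in Pbrm1 cKO. The median gamma target lay at -0.38, -0.09 and -0.46 in WT and at 0.41, 0.24 and 0.25 in Pbrm1 cKO. Both groups of genes thus separated the 3 Pbrm1 cKO libraries from the 3 WT libraries, and WT replicate 2 was the WT library nearest to Pbrm1 cKO in both. Summed over genes, type I targets came to 174 to 258 CPM in WT and 377 to 424 in Pbrm1 cKO (ratio 1.87). Gamma targets came to 191 to 251 CPM in WT and 267 to 290 in Pbrm1 cKO (ratio 1.26), a sum in which Irgm1 was the gene with the most counts.

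Promoter windows were read from RefSeq (GRCm38.p6, 250 bases before to 50 bases after a start site) to show which letters stand ahead of targets that did and did not change. Of the 47 genes, 36 had a window, 40 windows in all, and Mx1, Mx2, Iigp1, Ifi27 and Ifi27l2a were among the 11 without one. The core of the ISRE was searched on both strands as TTTC, any 2 bases and TTTC again (GAAA, any 2 bases and GAAA on the other strand). The GAS was searched as TTC, any 3 bases and GAA, which reads alike on both strands. The 2 motifs may overlap each other and themselves. An ISRE core was found in 21 of the 40 windows (52.5%), beside 3.44% of all 32851 promoter windows, and a GAS in 13 (32.5%), beside 8.30%. By gene, 16 of 27 genes that were higher and 5 of 9 that did not pass held an ISRE core, and 10 of 27 and 3 of 9 held a GAS. All 7 gamma targets with a window held an ISRE core, and 5 of 8 type I targets did. A GAS was found in 4 of the 7 gamma targets and 2 of the 8 type I targets. A match is a description of the letters and not evidence of binding.

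The windows shown are those of genes whose values are contrasted here, from the first base upstream, 5′ to 3′ on the strand of the gene, with matches to either motif in capitals. Ifit1 (chr19:34640639-34640938, plus strand), which did not pass, held ISRE cores at positions -104 and -85 from the start site, and Ifit3 (chr19:34583279-34583578, plus strand), which rose, held them at -156 and -122. Oas3 (chr5:120777610-120777909, minus strand), the type I target with the largest rise, held 1 core at -75.
Ifit1: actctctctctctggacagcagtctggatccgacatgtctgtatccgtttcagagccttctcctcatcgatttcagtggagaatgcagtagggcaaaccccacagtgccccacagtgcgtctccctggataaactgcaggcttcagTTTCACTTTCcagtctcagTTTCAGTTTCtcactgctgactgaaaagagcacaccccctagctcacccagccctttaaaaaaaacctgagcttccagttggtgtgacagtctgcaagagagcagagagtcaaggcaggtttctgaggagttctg
Ifit3: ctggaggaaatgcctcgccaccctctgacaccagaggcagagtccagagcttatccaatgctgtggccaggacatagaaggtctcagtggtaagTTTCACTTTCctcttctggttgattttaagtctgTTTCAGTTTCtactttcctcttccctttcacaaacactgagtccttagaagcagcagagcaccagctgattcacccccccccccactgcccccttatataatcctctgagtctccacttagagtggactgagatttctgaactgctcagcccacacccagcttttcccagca
Oas3: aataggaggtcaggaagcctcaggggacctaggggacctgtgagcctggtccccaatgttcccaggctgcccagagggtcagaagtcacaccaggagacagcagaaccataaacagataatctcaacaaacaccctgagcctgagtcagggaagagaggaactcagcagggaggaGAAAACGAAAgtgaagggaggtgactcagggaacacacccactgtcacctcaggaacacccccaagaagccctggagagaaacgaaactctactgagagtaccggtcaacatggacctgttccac

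Among gamma targets, Irgm1 (chr11:48871371-48871670, minus strand), which did not pass, held overlapping ISRE cores at -30 and -24 and no GAS. Irgm2 (chr11:58214727-58215026, plus strand) and Igtp (chr11:58199306-58199605, plus strand), which rose, each held a GAS followed by an ISRE core, at -75 and -64 in Irgm2 and at -45 and -34 in Igtp. Gbp5 (chr3:142496684-142496983, plus strand) held a GAS at -245 and at -52 and an ISRE core at -165. Gbp2 and Gbp3, which also rose, held no GAS.
Irgm1: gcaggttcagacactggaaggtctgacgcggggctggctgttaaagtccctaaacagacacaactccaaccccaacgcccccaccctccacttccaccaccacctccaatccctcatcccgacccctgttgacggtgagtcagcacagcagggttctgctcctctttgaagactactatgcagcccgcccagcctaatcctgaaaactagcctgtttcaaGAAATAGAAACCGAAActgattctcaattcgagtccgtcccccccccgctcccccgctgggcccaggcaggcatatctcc
Irgm2: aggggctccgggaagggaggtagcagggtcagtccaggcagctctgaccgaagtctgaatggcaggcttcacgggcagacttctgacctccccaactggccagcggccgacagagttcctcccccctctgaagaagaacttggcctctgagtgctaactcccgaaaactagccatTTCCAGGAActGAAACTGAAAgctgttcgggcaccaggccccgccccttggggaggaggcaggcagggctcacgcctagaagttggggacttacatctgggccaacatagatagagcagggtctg
Igtp: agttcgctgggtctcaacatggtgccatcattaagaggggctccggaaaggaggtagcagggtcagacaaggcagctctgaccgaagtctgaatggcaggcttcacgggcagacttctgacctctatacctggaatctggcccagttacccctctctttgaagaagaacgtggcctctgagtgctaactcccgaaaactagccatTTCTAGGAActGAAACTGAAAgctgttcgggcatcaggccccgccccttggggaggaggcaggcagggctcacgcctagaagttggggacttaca
Gbp5: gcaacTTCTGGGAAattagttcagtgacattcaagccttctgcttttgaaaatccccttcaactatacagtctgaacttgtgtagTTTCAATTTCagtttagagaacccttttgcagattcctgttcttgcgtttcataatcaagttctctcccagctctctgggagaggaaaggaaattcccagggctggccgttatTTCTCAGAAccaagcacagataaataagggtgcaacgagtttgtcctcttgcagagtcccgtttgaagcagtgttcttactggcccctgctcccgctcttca

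Both chains of the type I receptor were higher in Pbrm1 cKO. Ifnar1 had 1200, 1116 and 1046 normalised counts in WT against 1647, 1640 and 1523 in Pbrm1 cKO, a 1.43-fold rise (adjusted p = 3.29e-06). Ifnar2, 79.6 kb away on chromosome 16, rose 1.36-fold from 367 ± 16.6 to 498 ± 21.7 (SD, n = 3; DESeq2 adjusted p = 0.00176). Neither chain overlapped between the groups. Of 9 further receptor and signalling genes, 4 were higher and none was lower. Il10rb, a chain shared by the lambda interferon receptor, rose with a log2 fold change of 1.19, Ifngr2 with 0.51, Tyk2 with 0.45 and the feedback inhibitor Socs3 with 0.38. Ifngr1 (0.02), Jak1 (0.18), Jak2 (-0.11), Ifnlr1 (-0.79) and Socs1 (0.07) did not pass. Il10rb and Ifngr2 lie beside Ifnar2 and Ifnar1 on chromosome 16, so the receptor chains that rose are neighbours. Ifngr1 and Ifnlr1 lie on chromosomes 10 and 4.

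The transcription factors split evenly. Irf7, the factor that amplifies type I interferon production, had 798, 1162 and 918 normalised counts in WT against 2174, 1855 and 1941 in Pbrm1 cKO. The groups did not overlap, and the rise was 2.07-fold (95% confidence interval 1.70 to 2.53; adjusted p = 1.41e-11). Stat2 rose 1.77-fold from 593 ± 72.5 to 1049 ± 91.6 (SD, n = 3; DESeq2 adjusted p = 6.28e-09). Irf9, the partner of Stat2 in the ISRE-binding complex, had 1492, 1406 and 1213 in WT and 1626, 1469 and 1454 in Pbrm1 cKO, with overlap (adjusted p = 0.371). Irf1, a factor induced by interferon-gamma, also overlapped (361 ± 72.4 against 419 ± 56.5, SD, n = 3; DESeq2 adjusted p = 0.399).

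Interferon transcripts themselves were nearly absent. Of 21 interferon genes looked for, 16 had a count of 0 in every library and 20 had at most 3 counts in any library, and none was tested. Ifnb1 (interferon beta) reached 1, 1 and 0 counts in the libraries of WT and 4, 1 and 4 in those of Pbrm1 cKO. Ifng had 2 counts in 1 Pbrm1 cKO library and 0 elsewhere. The limit that a count of 0 allows is 3 counts, which is 0.164 to 0.226 CPM depending on the library, so differences in these genes were not detectable at this depth. Such limits cover counting error only.

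Of 13 genes of the pathway that leads to interferon production, 6 were higher and 1 was lower. Tlr7 and Tlr9, endosomal receptors for RNA and DNA, rose with log2 fold changes of 2.20 and 3.07. Tlr7 had 32.1, 85.5 and 81.1 normalised counts in WT against 321, 321 and 268 in Pbrm1 cKO, and Tlr9 was low throughout (3.28 against 27.3 on average). Irf5 rose with a log2 fold change of 1.40, the adaptor Myd88 with 0.76, the kinase Ikbke with 0.75 and Traf3 with 0.42. Tmem173 (STING, the adaptor for cytosolic DNA) fell by 0.56 on the log2 scale, from 689, 663 and 596 normalised counts in WT to 456, 448 and 415 in Pbrm1 cKO (adjusted p = 2.82e-05). Its upstream DNA sensor Mb21d1 (-0.31), Mavs (-0.33), Ticam1 (-0.13), Tlr3 (0.67), Tbk1 (0.13) and Irf3 (0.21) did not pass.

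Of 5 nucleic acid sensors that interferon induces, 4 were higher. Dhx58, a helicase that modulates the RNA sensors, had 64.1, 95.4 and 102 normalised counts in WT against 306, 266 and 264 in Pbrm1 cKO, a 3.20-fold rise (adjusted p = 1.10e-14). Zbp1, a sensor of Z-form nucleic acids, rose 2.04-fold, and Ifih1, a sensor of long double-stranded RNA, 1.90-fold. Ddx58, the sensor of RNA ends, rose 1.33-fold (adjusted p = 0.00922) and did not pass without Pbrm1 cKO replicate 1 (adjusted p = 0.111). Eif2ak2, the kinase that halts translation on double-stranded RNA, had 1131, 1222 and 1013 in WT and 1119, 988 and 962 in Pbrm1 cKO, with overlap and a fold of 0.912 (95% confidence interval 0.777 to 1.07).

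Isg15, a ubiquitin-like protein joined to other proteins, had 329, 540.5 and 828 normalised counts in WT against 1406, 1322 and 1334 in Pbrm1 cKO. The groups did not overlap although the WT libraries spread over more than 2-fold, and the rise was 2.39-fold (95% confidence interval 1.45 to 3.95; adjusted p = 0.00334). Its promoter window (chr4:156200769-156201068, minus strand) held 3 overlapping ISRE cores, at -78, -72 and -66, the most of any window of the 47 genes.
Isg15: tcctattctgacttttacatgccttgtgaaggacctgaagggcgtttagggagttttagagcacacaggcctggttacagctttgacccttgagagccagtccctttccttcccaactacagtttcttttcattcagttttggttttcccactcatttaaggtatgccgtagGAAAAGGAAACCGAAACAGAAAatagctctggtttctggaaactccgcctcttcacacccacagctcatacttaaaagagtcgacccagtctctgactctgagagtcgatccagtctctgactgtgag

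Usp18 removes Isg15 from proteins and damps the type I receptor, and Trim25 is a ubiquitin ligase for the RNA sensor Ddx58. Usp18 averaged 1064 ± 158 and 1280 ± 97.4 (SD, n = 3) with overlap, and did not pass (DESeq2 adjusted p = 0.113). Trim25 had 406, 545 and 1033 in WT and 1238, 1255 and 1100 in Pbrm1 cKO. The libraries did not overlap, but the WT spread left Trim25 short of the threshold (adjusted p = 0.0922). Without WT replicate 3 its log2 fold change went from 0.86 to 1.33 with an adjusted p of 7.02e-18, and it also passed in edgeR (adjusted p = 0.0343) and limma voom (adjusted p = 0.00313).

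Of 6 membrane and metabolic effectors, 3 were higher. Rsad2 (viperin, which makes a chain-terminating nucleotide) and Cmpk2, a nucleotide kinase, lie 12.8 kb apart on chromosome 12. Rsad2 had 201, 418 and 299 normalised counts in WT against 1102, 986 and 935 in Pbrm1 cKO, a 3.29-fold rise (adjusted p = 3.09e-14). Cmpk2 rose 2.59-fold from 131 ± 28.8 to 341 ± 17.2 (SD, n = 3; DESeq2 adjusted p = 4.19e-12). Ifitm3, which hinders virus entry at endosomes, rose 1.34-fold (adjusted p = 0.0171) and did not pass without Pbrm1 cKO replicate 1 (adjusted p = 0.146) or 2 (adjusted p = 0.0679). Per length, Ifitm3 had the highest WT level of the 47 genes, 796 ± 133 TPM (SD, n = 3), ahead of Bst2 (tetherin) at 429 ± 106.

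Bst2 did not pass (1.25-fold, adjusted p = 0.162), although its WT replicate 1 at 1434 normalised counts lay well under the other WT libraries (2368 and 2389) and all 3 Pbrm1 cKO libraries lay between 2536 and 2631. Ifitm2 had 609, 700 and 644 in WT and 565, 564 and 569 in Pbrm1 cKO, below WT in every library but short of the threshold (adjusted p = 0.171). An overlapping gene covers 40.9% of the exonic bases of Ifitm2, so its count is uncertain. Ifitm1 was low, at 13.7 normalised counts in WT and 13.5 in Pbrm1 cKO.

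The remaining 8 genes held the most opposed values. Ifi27 was the single gene of the 47 that fell. It had 1222, 1237 and 1139 normalised counts in WT against 575, 658 and 652 in Pbrm1 cKO, and it dropped by 0.93 on the log2 scale (SE 0.11, adjusted p = 2.80e-16). Ifi27l2a, its paralogue 1.93 kb away on chromosome 12 and on the opposite strand, had 134, 343 and 303 in WT and 651, 632 and 690 in Pbrm1 cKO, a 2.53-fold rise (adjusted p = 2.94e-06). The groups overlapped in neither gene. No 50-base stretch of Ifi27 and 0.483% of those of Ifi27l2a matched another gene, so sharing of reads is small in this pair. Ifi27 was lower in every alternative fit.

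Ifi44l and Ifi44, paralogues 8.78 kb apart on chromosome 3, were both higher. In WT, Ifi44l was counted 1, 0 and 1 times, and in Pbrm1 cKO its normalised counts were 179, 158 and 186. Since WT was at the floor of 3 counts per library, Ifi44l was at least 53.4-fold higher in Pbrm1 cKO. Ifi44 had 281, 464 and 324 normalised counts in WT against 638, 553 and 597 in Pbrm1 cKO, a 1.67-fold rise (adjusted p = 3.54e-04). None of the 50-base stretches of Ifi44l matched another gene. Its promoter window (chr3:151762842-151763141, minus strand), shown because this gene had the largest contrast of the 47, held neither motif.
Ifi44l: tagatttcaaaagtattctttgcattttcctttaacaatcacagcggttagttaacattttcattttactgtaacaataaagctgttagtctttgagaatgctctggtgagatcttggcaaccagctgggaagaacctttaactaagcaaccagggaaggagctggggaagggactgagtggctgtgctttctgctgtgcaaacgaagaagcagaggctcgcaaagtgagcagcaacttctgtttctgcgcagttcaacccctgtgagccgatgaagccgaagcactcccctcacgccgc

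Xaf1, which promotes apoptosis, rose 2.21-fold, and so did Parp14, an ADP-ribosyltransferase (2.21-fold), each with no overlap between groups. Ifi35 rose 1.33-fold (adjusted p = 0.00584) and did not pass without Pbrm1 cKO replicate 1 (adjusted p = 0.0694) or 2 (adjusted p = 0.0511). Rtp4 averaged 738 ± 116 in WT against 829 ± 11.5 in Pbrm1 cKO (SD, n = 3) with overlap (DESeq2 adjusted p = 0.380). Over the whole genome, 17 pairs of the 47 genes were neighbours within 200 kb. Both genes were higher in 12 of these pairs, and the calls differed in 4, namely Ifi27 and Ifi27l2a, Mx1 and Mx2, Ifit3b and Ifit1, and Ifitm1 and Ifitm3. Since 33 of the 47 genes were higher, pairs at any distance would often both be higher, and such pairs were not counted. The 17 pairs also share genes (28 genes in all), and some share sequence, so they are not independent.

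Other interferon-responsive genes were counted in the same way. Of 29 tested genes from a further type I list, 18 were higher and 1 was lower (Slfn9, named because it was the exception), with a median log2 fold change of 0.63. Trim30a rose with a log2 fold change of 2.01 and Slfn5 with 1.82, and among the most abundant, Lgals3bp rose with 0.77 and Znfx1 with 1.10, while Helz2 (0.19) did not pass. Of 21 tested genes from a further gamma list, 13 were higher and none was lower, with a median of 1.30 over the 16 genes of at least 10 normalised counts. The chemokine Cxcl10 rose with a log2 fold change of 2.38, the checkpoint ligand Cd274 with 2.26, and the antigen-processing genes Tap1, Tap2 and Psmb8 with 0.80, 1.12 and 0.60.

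Markers of leukocytes moved with these genes. All 8 pan-leukocyte markers were higher in Pbrm1 cKO (median log2 fold change 1.87), and their summed level was 62.7 to 143 CPM in WT and 408 to 443 in Pbrm1 cKO. Of 12 macrophage and dendritic cell markers, 11 were higher (median 2.28), and Flt3 was at the floor. Their summed level was 272 to 610 CPM in WT and 2503 to 2619 in Pbrm1 cKO. Lyz2 had 1896, 4837 and 5112 normalised counts in WT against 17551, 18360 and 20340 in Pbrm1 cKO. Csf1r rose with a log2 fold change of 2.59, Itgax with 3.88 and Cd74 with 3.05. Macrophages also express many of the interferon-stimulated genes listed here.

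Markers of other blood cells were low. All 5 markers of plasmacytoid dendritic cells, a main source of type I interferon, had at most 3 counts in any library. Summed T and NK cell markers (11 genes) came to 0.577 to 1.43 CPM in WT and 3.64 to 4.64 in Pbrm1 cKO, and summed B cell markers (5 genes) to 0.577 to 0.981 and 0.674 to 1.30, with Ms4a1 at 0 in every library. Summed red cell markers (5 genes) were at most 0.586 CPM in WT and at least 9.27 in Pbrm1 cKO, epithelial markers (12 genes) 134 to 240 and 243 to 258, and endothelial markers (10 genes) 118 to 347 and 115 to 127.

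**Figure D3:**
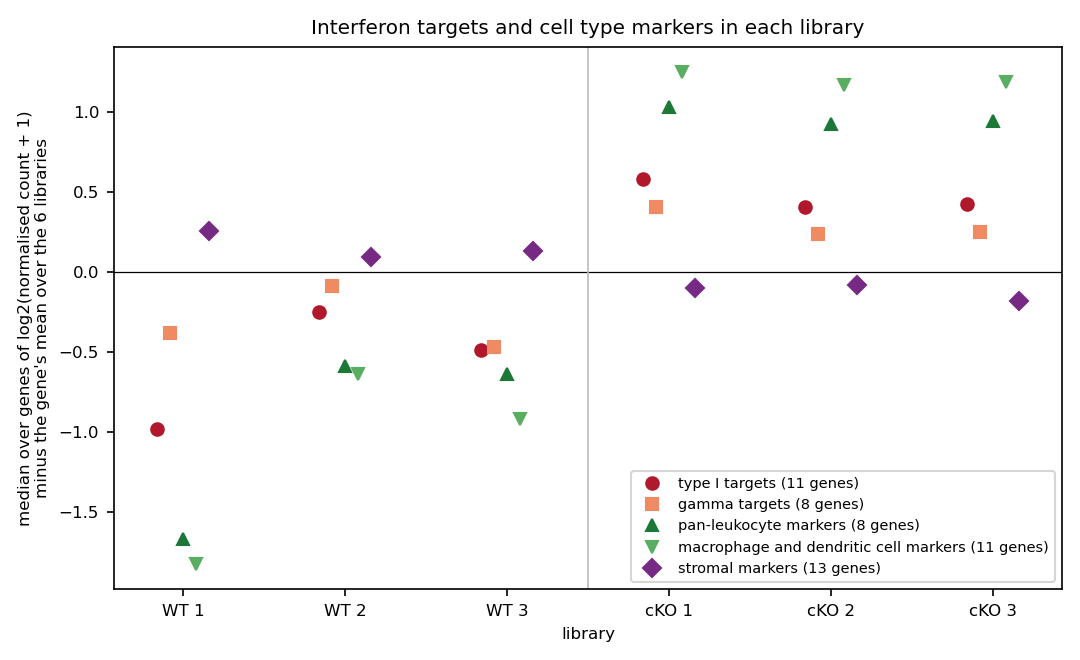
For each library, the median over genes of log2(normalised count + 1) minus the mean of the gene over the 6 libraries, for type I targets, gamma targets and 3 lists of cell type markers. WT replicate 1 is the lowest WT library for type I targets and for both leukocyte lists, and WT replicate 3 is the lowest for gamma targets. In every Pbrm1 cKO library the interferon and leukocyte lists lie above 0 and stromal markers below 0.

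WT replicate 1 was the lowest WT library in 30 of the 47 interferon-stimulated genes, and WT replicate 2 was the highest in 33. Among the Pbrm1 cKO libraries, replicate 1 was the highest in 30. The same counts were not made over all genes, so they are not read as particular to the 47. Over the 47 genes the median coefficient of variation was 19.3% in WT and 7.12% in Pbrm1 cKO, beside 13.1% and 6.69% over all genes of at least 10 normalised counts. The macrophage markers rose by a larger median log2 fold change than the interferon-stimulated genes did (2.28 and 0.74), a comparison of medians with no test. The part of leukocyte RNA in the values of the interferon-stimulated genes was not tested.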

How the data were processed

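RNA-seq libraries of primary uterine stromal cells (3 WT and 3 Pbrm1 cKO) were analysed. The deposited values are raw counts per gene, with replicates kept apart. Per the submitters' processing notes and the file header, the authors trimmed reads with cutadapt, aligned them with HISAT2 to GRCm38.p5 and counted them on GENCODE mouse release M18 with featureCounts 1.6.4 in reverse-stranded mode (-s2). By its defaults, reads that map to several places or overlap several genes are not counted, which lowers or removes counts of near-identical copies. The labels describe random and poly(T) priming with transcript depletion, whereas the methods of the study describe poly(A) selection, so the RNA classes captured are not settled here.

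Symbols were joined by gene ID (54079 of 54232 genes named). Counts were tested with DESeq2 1.42.0 in R 4.3.3, the tool of the study (Wald test, two-sided, all 6 libraries, no covariate, median-of-ratios size factors, default filtering), with Benjamini-Hochberg adjustment over all genes tested and a threshold of 0.05. Fold changes set Pbrm1 cKO over WT and were not shrunken. Where no library of a group exceeded 3 counts, the group was at the floor and a fold against it is a bound. TPM used the exonic lengths of the table. Shared sequence was the percent of 50-base stretches of the transcripts of a gene found in those of another gene (GENCODE M21). Alternatives were edgeR 4.0.16, limma 3.58.1 voom with a separate spread per group, TMM size factors, 2 other filters, the replicate number as a block, the criteria of the study (over 1.5-fold, p under 0.01, adjusted p under 0.1) and leaving out each library. On simulated counts of the same comparison (26994 genes, 200 changed), DESeq2 recovered 93 of 100 genes changed 4-fold and 74 of 100 changed 2-fold with 19 false calls. The simulation gave both groups the same spread and changed few genes. In the data WT spread more widely than Pbrm1 cKO and far more genes were called, so these rates need not hold for the real counts.

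With 1 exception, a gene that is not reported here, the rule for naming covers all 47 members, Pbrm1, the genes of the interferon, receptor and induction lists (of the 21 interferon genes, only Ifnb1 and Ifng are given by name), and of each other list at most the 3 most abundant and the 2 most changed. Oas1g, Slfn9, Flt3 and Ms4a1 fall outside it and were chosen after their values were seen. The members and the 15 context lists (186 genes) were chosen with earlier results of these data known. Protein sequences were not used here.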

Additional observations from a re-analysis of the deposited data

How the results depend on the processing

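Of the 34 interferon-stimulated genes called, 28 stayed past the threshold with the same sign in all 12 alternative fits, and Oas1a, Gbp3, Igtp, Ddx58, Ifitm3 and Ifi35 lost the call in at least 1 that left out a library. Mx2, Usp18, Trim25 and Bst2 passed in at least 1. The count of higher genes was 35 in edgeR and 36 in limma voom, both of which held all 33 of DESeq2, and 26 under the criteria of the study, under which all genes called fell to 1665 higher and 1452 lower. These criteria change the fold and both p thresholds together, and the cause was not tested. The type I count ranged from 8 to 10 and the gamma count from 4 to 6, and the median log2 fold change of the 47 genes from 0.60 to 0.78. Small values changed sign: Ifit1 was 0.0104 in limma voom, 0.002237 with TMM size factors and 0.008366 with the replicate block, and Ifitm1 0.03894 and 0.0108 in limma voom and with the block. Over fits that left out a library, Ifit1 ranged from -0.1184 to 0.1787, Irgm1 from -0.1138 to 0.04621, Iigp1 from -0.1186 to 0.3394 and Ifitm1 from -0.2964 to 0.2518. Same-numbered libraries did not deviate together (correlations 0.052, -0.050 and -0.0043 over 14162 genes), so the numbers were not taken as pairs; with the replicate block, 33 genes were higher, all of them among the 33 called without it. Depth limits the interferon genes themselves, which had at most 4 counts in any library.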
